A study of Homo sapiens with 6 samples.

Results

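The transcription factors FOXA1, GATA2, GATA3, GRHL2, SOX9, KLF4 and KLF5 act in the luminal lineage of the prostate epithelium or in neighbouring epithelial states. The 7 genes were found by symbol among the 35554 genes of the deposited count table. Their transcripts were counted in 3 RNA sequencing libraries of parental LNCaP cells and 3 of the LNCaP-enzaR line. LNCaP is an established androgen-dependent line of human prostate cancer that came from a metastasis, and both groups carry its genetic background. LNCaP-enzaR is a derivative that grows despite enzalutamide, a blocker of androgen signalling, and was obtained by long culture with the drug, whose concentration was later reduced. Parental cells were the untreated reference. Libraries came from separate flasks of each line, and the labels do not say whether the drug was present at harvest. The resistant line has 1 culture history, so p-values measure the spread between flasks and not between independent selections. The comparison asks whether the lineage factors differ between the sensitive and the resistant line.

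Luminal identity in the prostate rests on a small set of DNA-binding factors. FOXA1, a forkhead protein, and GATA2, a zinc finger protein, are known as pioneer factors that open chromatin for androgen-dependent transcription, and GRHL2, a grainyhead protein, maintains epithelial junction genes. SOX9, of the HMG box family, is best known from cartilage and is also active in prostate bud outgrowth and in progenitor cells. KLF4 and KLF5 are Krüppel-like zinc finger proteins that recognise GC-rich and CACCC elements, and KLF5 protein is turned over by the ubiquitin ligases WWP1 and FBXW7. GATA3, the relative of GATA2, is known from luminal cells of the breast and from prostate development.

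Sequence upstream of the start sites is shown for a pair of factors that fell together, KLF4 and KLF5, and for a pair that did not pass the threshold, FOXA1 and GATA2. Each run is the 250 bases before a RefSeq start (GRCh38.p14), read 5′ to 3′ on the strand of the gene, with GC boxes (GGGCGG on either strand) in capitals. For KLF5 and GATA2, each of which has 2 RefSeq starts, the downstream start is shown.
KLF4, chr9:107489770-107490019, minus strand: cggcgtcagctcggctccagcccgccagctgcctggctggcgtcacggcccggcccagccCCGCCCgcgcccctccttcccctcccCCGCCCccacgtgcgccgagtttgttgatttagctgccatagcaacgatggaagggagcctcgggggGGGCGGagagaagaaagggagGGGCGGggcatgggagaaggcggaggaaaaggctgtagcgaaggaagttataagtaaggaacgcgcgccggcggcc
KLF5, chr13:73058755-73059004, plus strand: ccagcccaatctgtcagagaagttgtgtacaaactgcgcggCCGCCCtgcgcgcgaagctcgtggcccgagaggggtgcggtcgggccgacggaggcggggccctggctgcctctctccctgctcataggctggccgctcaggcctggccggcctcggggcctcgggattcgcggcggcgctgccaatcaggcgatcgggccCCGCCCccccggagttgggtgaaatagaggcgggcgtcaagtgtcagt
FOXA1, chr14:37595250-37595499, minus strand: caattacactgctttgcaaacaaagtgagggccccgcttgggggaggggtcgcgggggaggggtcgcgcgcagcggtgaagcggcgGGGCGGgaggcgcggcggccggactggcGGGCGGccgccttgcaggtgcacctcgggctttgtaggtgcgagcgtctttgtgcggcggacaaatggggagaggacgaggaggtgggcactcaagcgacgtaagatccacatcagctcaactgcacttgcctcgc
GATA2, chr3:128488531-128488780, minus strand: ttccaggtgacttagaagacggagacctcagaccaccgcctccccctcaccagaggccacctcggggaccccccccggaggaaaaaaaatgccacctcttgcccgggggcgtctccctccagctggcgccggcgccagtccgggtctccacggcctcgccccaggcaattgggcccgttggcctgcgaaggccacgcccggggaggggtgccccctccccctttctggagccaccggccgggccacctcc
The KLF4 run holds 4 GC boxes, the KLF5 run 2, the FOXA1 run 2 and the GATA2 run 0, and 42.6% of the 35116 RefSeq windows of this length hold at least 1. GC content is 69.2% upstream of KLF4, 70.8% upstream of KLF5, 67.2% upstream of FOXA1 and 71.2% upstream of GATA2. A CACCC box (CCACCC on either strand), which 31.3% of all windows hold, is in none of the 4 runs. Upstream of the other GATA2 start, 1 GC box and 2 CACCC boxes were found. The upstream start of KLF5 lies in sequence of another kind, with 40.8% GC, a TATA box (TATAAA, in 10.7% of windows) and a SOX motif (AACAAT, in 8.98%), and with no GC box. A forkhead motif (TGTTTAC or TGTTTGC, in 6.09% of windows) is in the FOXA1 run. Such matches describe letters in a window and are not binding sites. Of 6 factors looked up, 5 had a window, and SOX9 had none.

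Of the 7 factors, 6 passed the filter on low counts and 3 of these, SOX9, KLF4 and KLF5, were lower in LNCaP-enzaR past the threshold, which asks for an adjusted p up to 0.05 and at least a 1.5-fold difference. None was higher. Across all 19711 tested genes, 42.7% were past this threshold, 19.5% lower and 23.3% higher. FOXA1, GATA2 and GRHL2 stayed short of the fold limit, as 51.2% of all tested genes did, and GATA3 was not tested. For 5 of the 6 tested factors, all but GATA2, the libraries of both lines did not overlap in CPM, as for 70.6% of all tested genes. The median log2 fold change of the 6 tested factors was −0.70, against 0.01 for all tested genes. Expression is given as CPM, the counts per 1000000 of a TMM-scaled library, and fold changes are LNCaP-enzaR over parental.

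**Figure D1:**
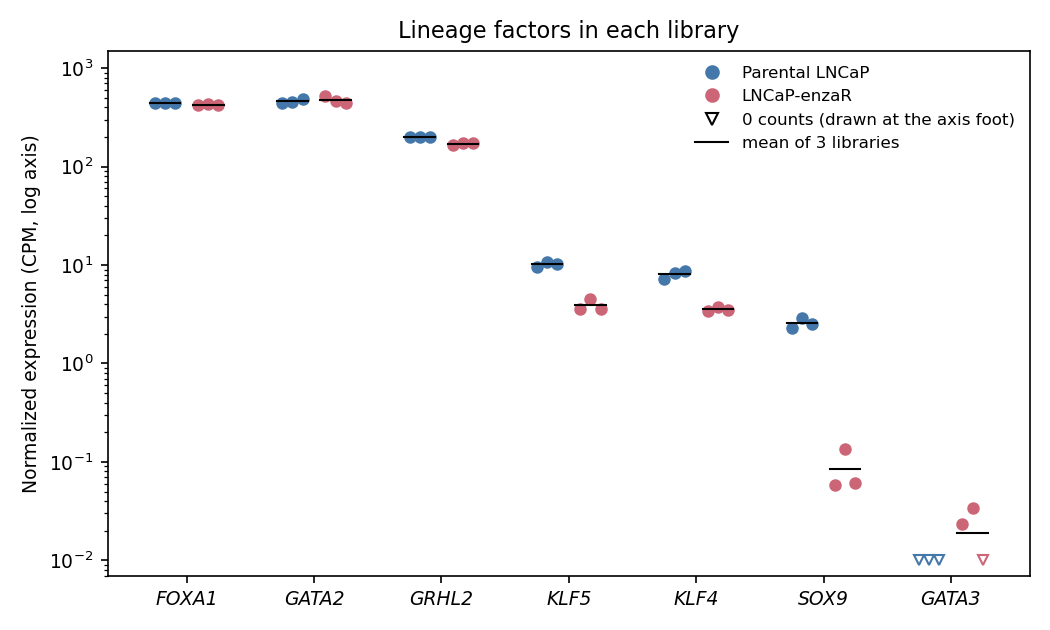
Normalized expression (CPM, log axis) of the 7 lineage factors in each library, with parental LNCaP in blue, LNCaP-enzaR in red, a black line at the mean of 3 libraries and open triangles for 0 counts. FOXA1, GATA2 and GRHL2 lie between 164 and 525 CPM in all libraries. The gap between the lines is wide for KLF5, KLF4 and SOX9, narrow for FOXA1 and GRHL2, whose LNCaP-enzaR points also lie below the parental ones, and absent for GATA2.

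FOXA1 (ENSG00000129514.8, chr14:37589552-37596059 on GRCh38) was measured at 441, 438 and 440 CPM in the parental libraries and at 420, 434 and 419 CPM in LNCaP-enzaR. The lowest parental library lay just above the highest LNCaP-enzaR library. The means were 439 ± 1.70 and 424 ± 8.28 CPM (SD, n = 3 each), and the difference was −0.05 on the log2 scale (SE 0.048, 95% interval −0.15 to 0.05, edgeR quasi-likelihood test with Benjamini-Hochberg adjusted p = 0.378). With upper-quartile scaling, which moved the median of all genes by 0.10, this small difference changed sign to 0.05.

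GATA2 (ENSG00000179348.12, chr3:128479427-128493201) lay in the same range as FOXA1. Its 3 parental libraries held 442, 456 and 489 CPM and its LNCaP-enzaR libraries 525, 465 and 447 CPM. The groups overlapped, and the highest value came from LNCaP-enzaR replicate 1. From 462 ± 24.3 to 479 ± 41.2 CPM, the log2 fold change was 0.05 (SE 0.066, 95% interval −0.09 to 0.19, adjusted p = 0.513). Without LNCaP-enzaR replicate 1 it was −0.01.

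GRHL2 (ENSG00000083307.12, chr8:101492439-101669726) reached 197, 198 and 200 CPM in parental cells, against 164, 173 and 174 CPM in LNCaP-enzaR. The 3 LNCaP-enzaR libraries all lay below the parental ones. Means of 199 ± 1.56 and 170 ± 5.33 CPM gave a log2 fold change of −0.22 (SE 0.051, 95% interval −0.33 to −0.11, adjusted p = 0.00148). This is 1.17-fold lower, short of the fold limit. Upper-quartile scaling reduced it to −0.12 (adjusted p = 0.0499, against 5.96e-05 to 0.0499 over the alternatives). With fold left aside, an adjusted p up to 0.05 was found for 66.3% of all tested genes.

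SOX9 (ENSG00000125398.8, chr17:72121020-72126416) showed the largest fitted change of the 6 tested factors. Its raw counts were 213, 261 and 197 in the parental libraries and 5, 12 and 6 in LNCaP-enzaR, or 2.30, 2.87 and 2.51 CPM against 0.058, 0.136 and 0.060 CPM. Every LNCaP-enzaR library lay far below every parental one. SOX9 fell from 2.56 ± 0.287 to 0.085 ± 0.044 CPM, which is −4.90 on the log2 scale (SE 0.294, 95% interval −5.54 to −4.27, adjusted p = 2.30e-09), or 29.9-fold. These are low levels in both lines, since 3 counts corresponded to 0.0302 to 0.0382 CPM. With 5, 12 and 6 counts in LNCaP-enzaR, SOX9 passed the filter through the parental line. A smaller number of cells that express SOX9 and less SOX9 RNA in each cell cannot be told apart in bulk RNA, which holds for every gene described here.

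KLF4 (ENSG00000136826.15, chr9:107484852-107490482) was at 7.21, 8.29 and 8.61 CPM in parental cells and at 3.42, 3.76 and 3.49 CPM in LNCaP-enzaR. The highest LNCaP-enzaR library stayed below the lowest parental one. Mean expression fell from 8.03 ± 0.734 to 3.55 ± 0.180 CPM, which is −1.18 on the log2 scale (SE 0.108, 95% interval −1.41 to −0.94, adjusted p = 2.49e-07), or 2.26-fold. In the later annotation, 9.75% of the exonic bases of KLF4 lie in exons of other genes, and the strand setting of the counting is not stated.

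KLF5 (ENSG00000102554.14, chr13:73054976-73077541) moved in the same direction. It was at 9.52, 10.6 and 10.3 CPM in parental cells and at 3.58, 4.56 and 3.56 CPM in LNCaP-enzaR. Again no library of one line reached those of the other. From 10.1 ± 0.573 to 3.90 ± 0.574 CPM, the log2 fold change was −1.38 (SE 0.114, 95% interval −1.62 to −1.14, adjusted p = 7.57e-08), or 2.60-fold lower. The balance between both Krüppel-like factors was read within each library as the log2 ratio of KLF5 to KLF4 per kilobase. It was 0.33 ± 0.075 in parental cells and 0.12 ± 0.135 in LNCaP-enzaR, a difference of −0.21 that did not pass a 2-sided exact permutation test (p = 0.20, where 3 against 3 libraries cannot go below 0.10).

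GATA3 (ENSG00000107485.18, chr10:8045378-8075198) was not detectable at this depth in most libraries. It had 0 counts in all 3 parental libraries and 2, 3 and 0 counts in LNCaP-enzaR, so no fold change is given. At 77759122 to 98616465 counts per library, a count of 0 allows up to 0.0382 CPM, and this limit covers counting error only. The planned ratio of GATA2 to GATA3 could not be formed for the same reason.

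To compare levels between the factors, CPM were divided by the exonic length in kilobases. FOXA1 (99.6) and GATA2 (94.0) were the most abundant in parental cells, followed by GRHL2 (32.8), KLF5 (2.76), KLF4 (2.19) and SOX9 (0.651), in CPM per kilobase. In LNCaP-enzaR the order was GATA2 (97.4), FOXA1 (96.1), GRHL2 (28.1), KLF5 (1.06), KLF4 (0.971) and SOX9 (0.0216) on the same scale. The ranges of FOXA1 and GATA2 overlapped in both lines, and those of KLF5 and KLF4 overlapped in LNCaP-enzaR and not in parental cells. Among the 19673 tested genes with an exonic length, FOXA1 stood at percentile 98.3 of the level in parental cells and 98.4 in LNCaP-enzaR. KLF5 went from percentile 56.0 to 41.7 and KLF4 from 52.5 to 40.5. SOX9 went from percentile 36.8 to 2.66. The drop was thus among factors that were already at middle or low levels in parental cells, while the 3 abundant ones changed by less than 1.5-fold.

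Relatives of each factor were listed by family. Counts past the threshold in these and all later lists stand beside 42.7% of all tested genes, 19.5% lower and 23.3% higher. GATA2 made up 96.3% of the summed GATA family level per kilobase in parental cells and 95.9% in LNCaP-enzaR. Of 5 other GATA family genes, 2 were tested and neither was past the threshold. GATA6, which acts in endoderm, was at 6.12 ± 0.387 and 8.48 ± 0.380 CPM, with a log2 fold change of 0.47. TRPS1, a GATA-type repressor, was at 21.4 and 21.3 CPM with a fold change of −0.01, whose sign differed with the scaling. FOXA3, the other forkhead A gene examined, held at most 5 counts in any library, so FOXA1 supplied nearly all of the level of this pair.

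GRHL2 supplied 64.4% of the grainyhead family level per kilobase in parental cells and 67.0% in LNCaP-enzaR, while the family total went from 51.0 to 42.0. GRHL1, its closest epithelial relative, fell from 12.6 ± 1.06 to 7.11 ± 0.219 CPM, or by −0.82 on the log2 scale. UBP1, a more distant and widely expressed relative, was at 161 and 125 CPM, short of the fold limit at −0.37. Of the 3 tested relatives of GRHL2, 1 was higher and 1 lower past the threshold, and the higher one, GRHL3, had fewer than 1 CPM in both lines. Its call was lost without parental replicate 2, without LNCaP-enzaR replicate 1 or without LNCaP-enzaR replicate 3, when 1 call was left in the list.

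SOX9 was a minor member of its family in both lines, with 0.740% ± 0.065 of the summed SOX level per kilobase in parental libraries and 0.041% ± 0.022 in those of LNCaP-enzaR. The summed level of the 14 SOX genes itself went from 87.8 to 52.6 CPM per kilobase. Of 7 other SOX genes tested, 4 were lower, 2 higher and 1 not past the threshold, with a median log2 fold change of −0.72. SOX4, known from progenitor cells and often abundant in carcinomas, fell from 186 ± 2.18 to 46.1 ± 3.66 CPM (log2 fold change −2.01). SOX12, which belongs to the same subgroup as SOX4, fell from 203 ± 7.95 to 123 ± 8.78 CPM (−0.72). SOX8 moved the other way. It belongs to the same subgroup as SOX9 and rose from 9.22 ± 0.956 to 60.9 ± 2.96 CPM (log2 fold change 2.72). The log2 ratio of SOX9 to SOX8 per kilobase, chosen after their values were seen and given without a test, was −1.66 in parental cells and −9.42 in LNCaP-enzaR. SOX13, of another subgroup, was at 14.7 and 18.6 CPM and not past the threshold.

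**Figure D2:**
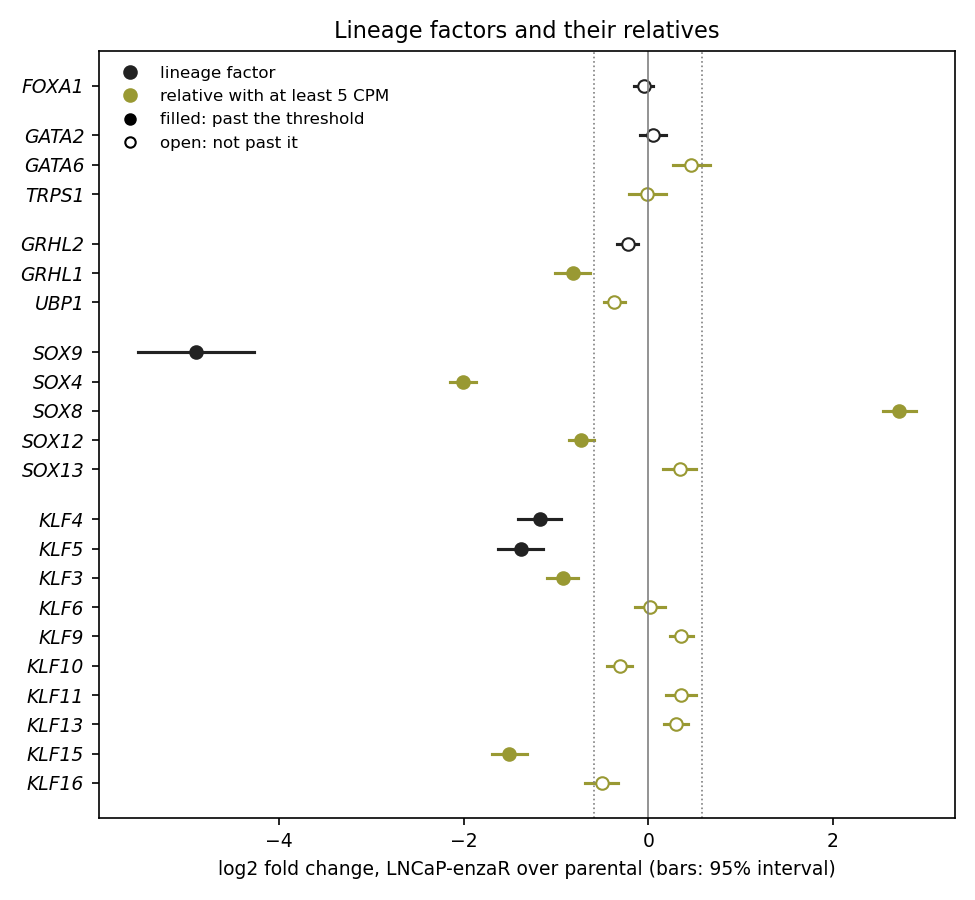
Log2 fold change of each tested lineage factor (black) and of its relatives with at least 5 CPM (olive), with bars for the 95% interval, filled points past the threshold and dotted lines at 1.5-fold. SOX8 lies at 2.72 and SOX9 at −4.90, on opposite sides of 0, and KLF15 (−1.51), KLF5 (−1.38) and KLF4 (−1.18) are the lowest of the Krüppel-like factors shown.

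KLF4 made up 2.78% ± 0.197 of the summed level of 16 Krüppel-like factors in parental cells and 1.46% ± 0.054 in LNCaP-enzaR. For KLF5 these shares were 3.49% ± 0.141 and 1.59% ± 0.203. Both shares were lower in 3 of 3 LNCaP-enzaR libraries, while the summed level went from 78.9 to 66.6 CPM per kilobase. Of 14 other family members tested, 5 were lower, 1 was higher and 8 were not past the threshold, with a median log2 fold change of −0.20. KLF15, which acts in metabolism and in hormone responses, fell from 23.2 ± 0.008 to 8.16 ± 0.940 CPM (−1.51). KLF3, a repressor that binds CACCC elements, fell from 50.0 ± 1.36 to 26.3 ± 2.94 CPM (−0.93). Other abundant members were short of the fold limit in either direction. KLF9, a hormone-responsive member, was at 77.6 and 99.6 CPM (0.36) and KLF13 at 74.2 and 91.3 CPM (0.30). The group KLF10, KLF11 and KLF16 had log2 fold changes of −0.31, 0.35 and −0.51, and KLF16 passed the threshold without LNCaP-enzaR replicate 1 (−0.59). KLF6, often described as a growth suppressor, was at 15.5 and 15.7 CPM with a fold change of 0.02, whose sign differed with the scaling.

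Partners of these factors were listed as cofactors and ubiquitin ligases, and of 16 tested, 6 were higher, 2 lower and 8 not past the threshold (median log2 fold change 0.28). The nuclear factor I proteins bind beside FOXA1 and diverged among themselves. NFIB fell from 43.8 ± 1.01 to 7.87 ± 0.880 CPM (−2.48), while NFIX rose from 885 ± 19.2 to 1511 ± 30.0 CPM (0.77). TLE1, a corepressor that binds FOXA1, rose from 48.4 ± 1.35 to 127 ± 4.40 CPM (1.39). The ligases that turn over KLF5 protein are named here after their values were seen. FBXW7 fell from 18.5 to 10.3 CPM (−0.84), and WWP1 was at 155 and 115 CPM, short of the fold limit (−0.43).

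Among 16 tested prostate epithelial factors outside the 7, 9 were lower, 2 higher and 5 not past the threshold, and their median log2 fold change was −0.65. Their summed expression was 2748 ± 27.9 CPM in parental cells and 1551 ± 3.93 CPM in LNCaP-enzaR. EHF and SPDEF are ETS-family factors of epithelial differentiation. EHF fell from 605 ± 11.4 to 169 ± 14.8 CPM (−1.84) and SPDEF from 129 ± 5.35 to 38.4 ± 2.37 CPM (−1.75). OVOL1, a zinc finger repressor of mesenchymal genes, rose from 3.62 ± 0.286 to 15.7 ± 1.23 CPM (2.12), with 27.3% of its exonic bases in exons of other genes. By contrast, the summed CPM of the 7 lineage factors was 1121 ± 27.1 and 1081 ± 35.2, carried by FOXA1, GATA2 and GRHL2.

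Genes that GRHL2 is known to maintain were examined beside it. Of 15 tested epithelial junction and splicing genes, 3 were higher, 1 was lower and 11 were not past the threshold, with a median log2 fold change of 0.01. PRSS8, a serine protease of the epithelial surface, rose from 42.9 ± 0.799 to 74.6 ± 7.02 CPM (0.80). CLDN3, a tight junction claudin, fell from 64.9 ± 4.17 to 35.9 ± 4.14 CPM (−0.85). SPINT1, an inhibitor of such proteases, was at 155 and 231 CPM, just short of the fold limit (0.57), which it passed with upper-quartile scaling (0.67), under the minimum of 10 counts in every library (0.60) and without parental replicate 3, LNCaP-enzaR replicate 2 or LNCaP-enzaR replicate 3 (0.60 to 0.61). The summed level of the list was 1871 ± 35.9 and 2071 ± 56.3 CPM.

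Markers of cell identity were read beside the lineage factors. Of 16 luminal prostate markers, 9 were lower, 4 higher and 3 not past the threshold (median log2 fold change −0.67), and their summed CPM went from 4208 ± 26.7 to 3142 ± 82.2. The largest single fall was that of KLK3, at 1190 ± 42.1 and 141 ± 9.26 CPM. SLC45A3 (372 to 14.0 CPM), FOLH1 (894 to 576 CPM) and KLK2 (379 to 94.9 CPM) fell as well. Rises, the largest in KRT8, STEAP2 and KRT18, offset part of these falls in the sum. The secreted and membrane products KLK3 (prostate-specific antigen, −3.08) and SLC45A3 (prostein, −4.73) fell, and AMACR, a peroxisomal racemase, rose (3.21). For AMACR, 72.3% of the exonic bases overlap exons of other genes, so its reads are uncertain without a stated strand setting. The luminal keratin KRT8 (397 to 886 CPM, 1.16) and the membrane protein STEAP2 (387 to 696 CPM, 0.85) rose. KRT18, with 17.1% of its exonic bases in exons of other genes, was at 293 and 414 CPM, short of the fold limit (0.50). The keratin KRT19 fell from 5.51 to 1.94 CPM (−1.51). Of 14 basal markers, 9 were tested, 3 were higher and 2 lower, and the list summed to 60.6 ± 1.60 and 34.0 ± 2.55 CPM. ITGA6 alone fell by more CPM than the sum did, and the median log2 fold change of the tested basal markers was 0.32. ITGA6, an integrin of basal cells, fell from 44.9 ± 1.89 to 11.5 ± 0.982 CPM (−1.96), and the laminin chain LAMB3 rose from 0.166 ± 0.063 to 4.22 ± 0.783 CPM (4.64). NGFR, a neurotrophin receptor, rose from 0.070 ± 0.084 to 0.879 ± 0.145 CPM (3.70). With 3, 1 and 13 counts in parental cells, NGFR passed the filter through the resistant line, and 27.2% of its exonic bases lie in exons of other genes. Among the defining basal genes, KRT5, KRT15, KRT17 and TP63 did not pass the filter, and no untested basal marker held more than 14 counts. The basal keratin KRT14 was detected in both lines and fell from 1.34 ± 0.394 to 0.592 ± 0.173 CPM (−1.18).

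Genes of mesenchymal programmes and cartilage, tissues in which SOX9 is active, were listed as well. Of 5 tested mesenchymal markers, 3 were lower, 1 higher and 1 not past the threshold. FN1, fibronectin, fell from 337 ± 7.05 to 31.0 ± 1.01 CPM (−3.44). The transcription factors TWIST1 (26.8 to 7.29 CPM, −1.88) and SNAI2 (3.76 to 0.415 CPM, −3.18) fell as well. VIM, the intermediate filament vimentin, was the one that rose, from 2.85 ± 0.135 to 6.41 ± 0.544 CPM (1.17), with 24.6% of its exonic bases in exons of other genes. Of 5 tested genes among the known direct targets of SOX9 in cartilage, 2 were higher, 0 lower and 3 not past the threshold. COL9A1 had 0 counts in every parental library and 25, 16 and 38 in LNCaP-enzaR, so it passed the filter through the resistant line alone and could not have fallen. COL11A2 was at 0.119 and 0.265 CPM and COL9A3 at 2.31 and 2.07 CPM, and COL9A3 was not past the threshold. COL11A2 passed narrowly (adjusted p = 0.0482), and its call was lost with DESeq2, library totals, no filter or the replicate block and on leaving out any 1 library.

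**Figure D3:**
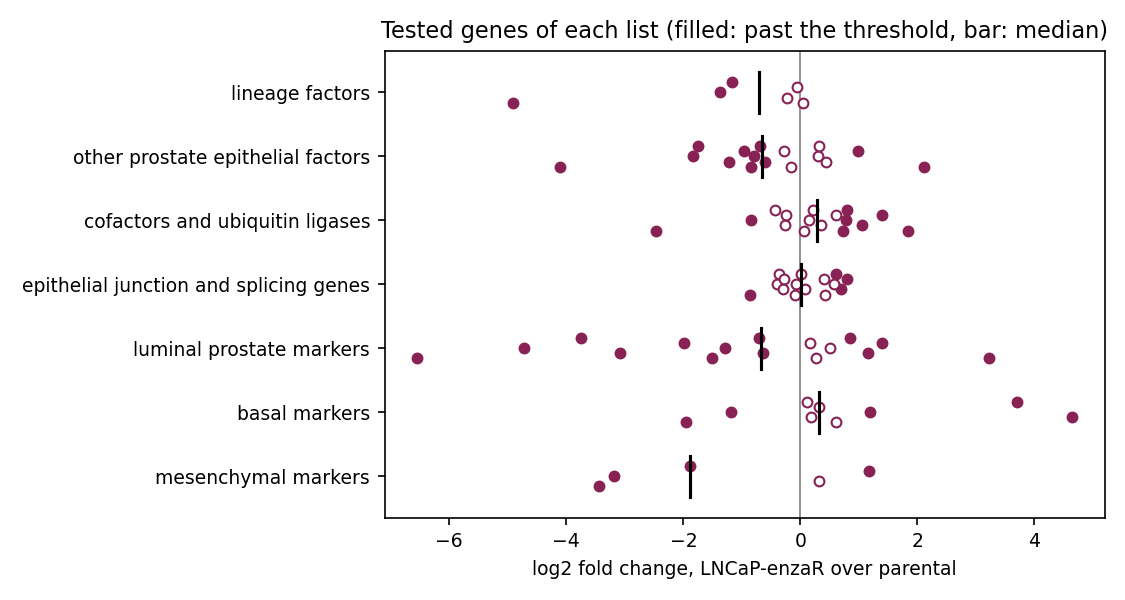
Log2 fold change of each tested gene in 7 lists, with filled points past the threshold and a black bar at the median. The medians lie at −0.70 for the lineage factors, −0.65 for other prostate epithelial factors, 0.28 for cofactors and ubiquitin ligases, 0.01 for junction and splicing genes, −0.67 for luminal, 0.32 for basal and −1.88 for mesenchymal markers.

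Genes next to the 7 factors were examined to see whether a whole region moved. Of the 42 nearest tested genes, 3 on each side of every factor, 9 were higher, 11 lower and 22 not past the threshold. This is near the share of all tested genes past it, 42.7%, with 23.3% higher and 19.5% lower. None of the 6 genes around KLF4 was past it. Around KLF5, 3 of 6 were lower, among them KLF12, a repressor of the same family (0.822 ± 0.140 to 0.074 ± 0.044 CPM, −3.46). With 4, 11 and 5 counts in LNCaP-enzaR, KLF12 passed the filter through the parental line and could not have been called higher. The same holds for KCNJ2, a lower neighbour of SOX9. Conversely, RP11-96D24.1 near FOXA1 and TMED10P2 near GATA2, both counted as higher, passed the filter through LNCaP-enzaR. SOX9 had 2 higher and 2 lower neighbours, and its nearest tested protein-coding gene, the zinc transporter SLC39A11, rose from 18.1 ± 0.597 to 42.1 ± 1.02 CPM (1.22). Around GRHL2, 5 of 6 neighbours were higher and 0 lower, with a median log2 fold change of 1.51 against −0.22 for GRHL2 itself.

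Transcripts on the other strand that overlap a factor or lie within 10 kb of it differed in direction. KB-1562D12.1, a long noncoding RNA whose annotated span overlaps the start of GRHL2, had 52, 90 and 74 counts in parental cells and 894, 946 and 996 in LNCaP-enzaR. It rose from 0.831 ± 0.234 to 10.4 ± 0.337 CPM, which is 3.65 on the log2 scale (SE 0.161, adjusted p = 8.90e-11). TTC6 starts 598 bases from the RefSeq start of FOXA1 and inside the annotated span of FOXA1. TTC6 had 3598, 3410 and 2894 counts in parental cells and 1695, 1863 and 1972 in LNCaP-enzaR. It fell from 37.7 ± 1.04 to 20.2 ± 0.780 CPM (log2 fold change −0.90, adjusted p = 1.91e-08), beside a FOXA1 value of −0.05. GATA2-AS1 starts 682 bases from the downstream start of GATA2 and was at 95.2 ± 2.68 and 71.3 ± 6.18 CPM, short of the fold limit (−0.42, adjusted p = 6.60e-05). SOX9-AS1 had 0 counts in 4 of 6 libraries and at most 5 in the others. Without a stated strand setting, reads shared between such partners cannot be assigned.

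**Figure D4:**
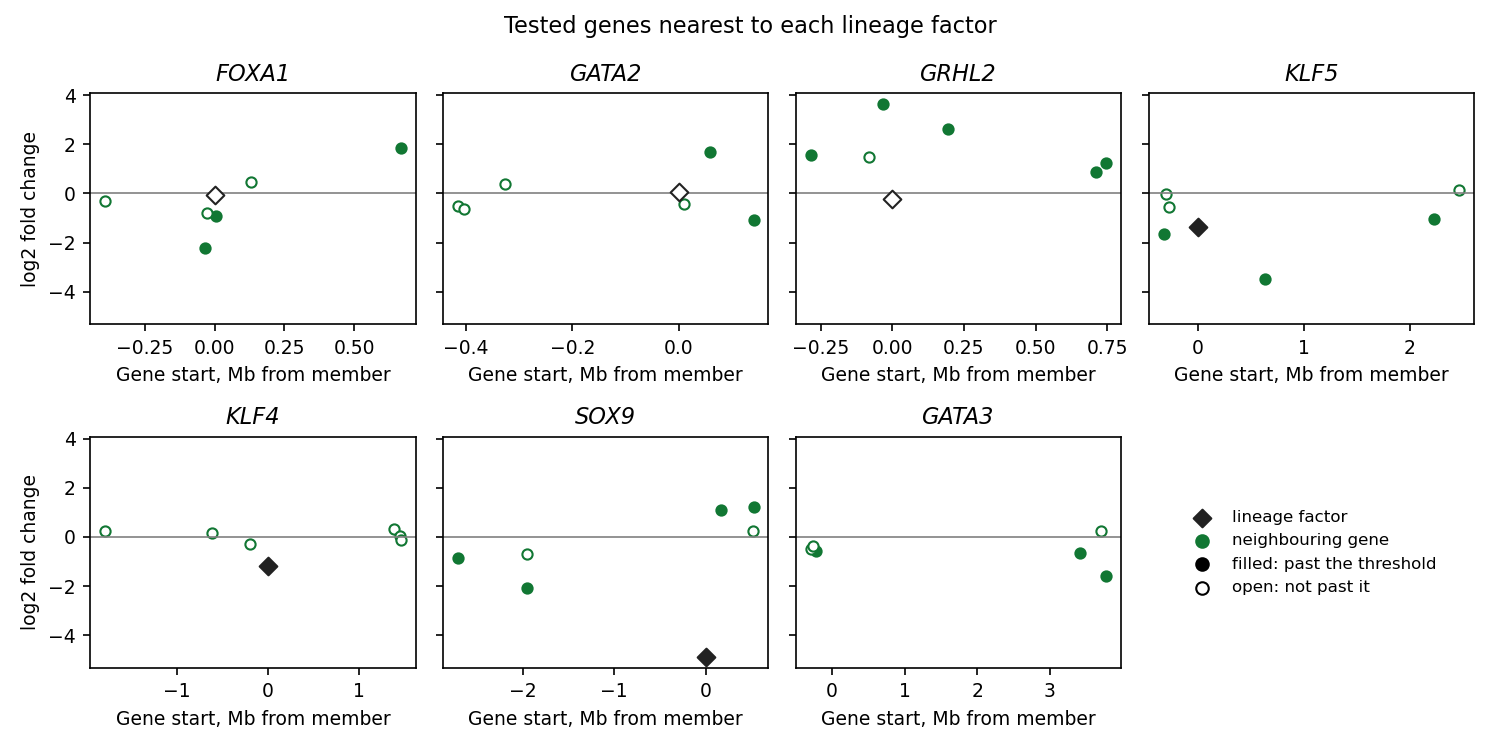
Log2 fold change of each lineage factor (diamond, at 0) and of the 3 nearest tested genes on each side (green), plotted against the distance of gene starts in Mb, with filled symbols past the threshold. Around GRHL2, 5 of 6 neighbours are filled and above 0, around KLF4 none is filled, and GATA3 has no diamond because it was not tested.

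The genes whose pattern over the 6 libraries was most like that of each fallen factor were found by Euclidean distance of centred log2 CPM. The search covered 10183 protein-coding genes with a mean of at least 5 CPM. BEND4 (43.1 to 2.07 CPM, distance 0.668) and ADGRG6 (134 to 5.59 CPM, 0.787) lay nearest to SOX9. ZNF697 (distance 0.128) and AKAP13 (0.140) lay nearest to KLF4, and SAAL1 (0.184) and CDC42EP3 (0.192) nearest to KLF5. The distance is a description over libraries that share their line, with no test. The patterns nearest to SOX9 were farther from it than those nearest to KLF4 and KLF5 were from them. SOX9 itself lies below the 5 CPM limit of the search and had 5, 12 and 6 counts in LNCaP-enzaR. Genes at its own level were thus not searched, and the larger distance is not read as a trait of SOX9.

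Other measures differed between the lines and stand beside these results. Mitochondrial transcripts took 6.72 to 7.06% of the counts in parental libraries and 14.7 to 15.5% in LNCaP-enzaR. Leaving out the mitochondrial genes gave log2 fold changes of −4.90 for SOX9, −1.17 for KLF4 and −1.38 for KLF5. Libraries of a line correlated at 0.990 to 0.992 in log2 CPM across genes, and libraries of different lines at 0.921 to 0.926. Fibroblast and endothelial markers summed to 22.1 to 25.4 CPM in parental libraries and 21.2 to 21.8 CPM in LNCaP-enzaR. Blood cell markers summed to 0.209 to 0.529 and 0.645 to 0.816 CPM, and PTPRC, CD3E, LYZ, CD74 and TYROBP, which were not tested, held at most 8 counts in any library. The part of these lists in the values of the lineage factors was not tested.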

How the data were processed

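The authors prepared libraries of polyadenylated RNA, trimmed paired-end reads with Cutadapt, aligned them to GRCh38 with STAR and GENCODE v38, and assigned reads to genes with featureCounts. The authors deposited raw counts, not normalized, for 35554 genes. Settings for strand and for reads that map to several places are not given in the sources used here. Group and replicate number were read from sample titles, with 3 libraries of 77759122 to 98616465 counts per line.

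The analysis used edgeR 4.0.16 (R 4.3.3). After filterByExpr (19711 genes, 99.96% of counts) and TMM scaling, the robust quasi-likelihood F-test compared both lines with no covariate, and p-values were adjusted over all genes tested by the Benjamini-Hochberg method. The limits, an adjusted p of 0.05 and 1.5-fold, are those of the study's methods. DESeq2, the study's tool, was an alternative (run here as version 1.42.0), beside other scalings, filters, a replicate block and leaving out each library. Exonic length and strand came from GENCODE v44, and promoter sequence from RefSeq. The share of exonic bases in exons of other genes is printed above for some genes only. Others, such as PSCA (20.8%), LAPTM5 (19.3%) and KLF16 (16.3%), also have such overlap. All 7 factors had the same coordinates in both annotations.

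The 7 members and 16 further lists were chosen with earlier results of these data known. Named genes were the 7 factors, family members with at least 5 CPM, the 3 genes of smallest p in each other list, genes within 10 kb of a factor, and the 2 nearest patterns of each factor past the threshold. Any other gene, among them KLF12, SLC39A11, GRHL3, KRT8, KRT14, KRT18, KRT19, STEAP2, VIM and the untested markers, was named once its values were known. On simulated counts of 19209 genes, of which 200 were changed, the test recovered 99% of 2-fold and 100% of 4-fold changes, with 3 false calls. Changes were planted only in genes above a minimum mean CPM, so the recovery does not cover calls at low counts. A far smaller share of genes was changed than in the data, so scaling under wide change was not tested.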

Additional observations from a re-analysis of the deposited data

How the results depend on the processing

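SOX9 (-5.40 to -4.69), KLF4 (-1.25 to -1.07) and KLF5 (-1.50 to -1.28) kept their direction and stayed past the threshold in every alternative that gave a value, and SOX9 had none under a minimum of 10 counts in every library. GRHL2 ranged from -0.26 to -0.12. The small differences of FOXA1 and GATA2 changed sign, to 0.0502 with upper-quartile scaling for FOXA1 and to -0.0129 without LNCaP-enzaR replicate 1 for GATA2, where leaving out libraries gave up to 0.104. TRPS1 changed sign with DESeq2 (0.0018), RLE size factors (0.0020), upper-quartile scaling (0.0922), the minimum of 10 counts (0.0140) and on leaving out libraries (-0.0792 to 0.107). KLF6 did so with library totals (-0.0136) and on leaving out libraries (-0.00693 to 0.0740). The cause of these changes was not tested. In all, 13074 genes passed with no minimum fold and 5561 with a minimum of 2-fold. Under the minimum of 10 counts, fewer genes were tested, and the lists then held 3 calls for the KLF family, 3 for club and hillock, 0 for neuroendocrine and 0 for cartilage genes. Neuroendocrine calls were 3 with upper-quartile scaling. Cartilage calls were 1 with DESeq2 and 1 with library totals, and blood cell calls were 0 with DESeq2. Leaving out libraries gave 1 to 2 calls for the grainyhead, neuroendocrine and cartilage lists each, and 0 to 1 for blood cell markers. All other lists held their number of calls within 1.5 times in every alternative, as did 48 of 57 other named genes their call and direction.

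The replicate numbers did not pair the samples, since same-numbered libraries had correlations of their deviations from -0.065 to -0.00041. With the number as a replicate block, 8212 genes passed and cartilage calls were 1, while SOX9, KLF4 and KLF5 were at -4.92, -1.17 and -1.39. The same 3 lineage factors were past the threshold. No alternative ratio of GATA2 to GATA3 could be run, because GATA3 had 0 counts in 4 libraries.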

Other observations

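Further lists describe other epithelial and lineage states beside the 7 factors. Of 6 tested club and hillock markers, 3 were higher and 3 lower. Among the higher ones, KRT7 (5, 0 and 0 counts in parental cells) and PIGR (20, 9 and 11) passed the filter through the resistant line. SLPI, a secreted protease inhibitor, rose from 3.60 ± 0.554 to 10.2 ± 0.537 CPM (SD, n = 3 each), or 2.83-fold. PSCA, a surface antigen, fell from 3.93 ± 0.342 to 1.78 ± 0.185 CPM (-1.14). MMP7, a secreted protease, had 46, 29 and 35 counts in parental cells and 3, 3 and 1 in LNCaP-enzaR. It passed the filter through the parental line alone.

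Of 3 tested neuroendocrine markers, 1 was higher past the threshold and 0 lower. That gene, SCG3, had 0, 3 and 2 counts in parental cells and 18, 33 and 23 in LNCaP-enzaR. SCG3 passed the filter through the resistant line alone and could not have been called lower. The Notch ligand DLL3 was at 9.27 ± 1.12 CPM in parental cells with a log2 fold change of 0.49, and the synaptic protein SYP at 2.05 ± 0.221 CPM with 0.51, both short of the fold limit, which both passed with upper-quartile scaling and SYP also without parental replicate 2.

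Among 6 tested fibroblast and endothelial markers, 3 were higher, 1 lower and 2 not past the threshold. ACTA2, a smooth muscle actin, rose from 2.00 ± 0.397 to 8.71 ± 0.255 CPM (2.12), PDGFRB, a growth factor receptor, rose from 0.641 ± 0.038 to 1.73 ± 0.295 CPM (1.43), and the collagen COL1A1 fell from 13.4 to 4.29 CPM (-1.64). Of the exonic bases of ACTA2, 36.2% lie in exons of other genes. Of 2 tested blood cell markers, LAPTM5 passed the threshold and SPI1 did not, both under 0.4 CPM, and LAPTM5 did not pass under DESeq2 or without parental replicate 2 or 3 or LNCaP-enzaR replicate 2 or 3. With 14, 0 and 0 counts in parental cells, LAPTM5 passed the filter through the resistant line. SPI1 passed under the minimum of 10 counts in every library (0.86).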
